A study of Mus musculus with 2 samples.

Results

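Endothelial cells of the mouse thymus were picked out of 2 droplet single-cell RNA libraries of thymic stroma by transcripts of the cells that line blood vessels. A barcode was taken as endothelial when it held at least 500 genes and 1000 UMIs (unique molecular identifiers, counts of captured RNA molecules), at most 10% mitochondrial UMIs and at least 3 of the 7 genes Pecam1, Cdh5, Flt1, Egfl7, Emcn, Cldn5 and Tie1. It also had to hold no Epcam UMI, and the collagen genes Col1a1, Col1a2 and Col3a1 together had to stay under 20 UMIs per 10000. This gave 163 cells of 11774 that passed the cell filter, 85 of 3588 in library 1 and 78 of 8186 in library 2. The share was 2.37% (95% exact binomial interval 1.90 to 2.92) in library 1 and 0.953% (0.754 to 1.19) in library 2, with a mean of 1.66% ± 1.00 (SD, n = 2). These intervals cover counting error only.

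Both libraries carry the genotype label E2F_M11, in which CRISPR-Cas9 removed 2 binding sites for E2F factors from the proximal promoter of Foxn1, the gene of the transcription factor that drives thymic epithelial development. Thymi were trimmed of surrounding vessels and connective tissue, digested with collagenase/dispase and DNase, freed of red cells and depleted of CD45-bearing blood cells on magnetic beads. The study set these libraries against wild-type thymic stroma, which was not analysed here, so no value below measures an effect of the deletion. Age and sex are not in the labels, nor is it stated whether each library is a different mouse, so that the spread between them may be technical. The comparisons therefore set the endothelial cells against the other stromal classes of the same 2 libraries.

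Blood vessels of the thymus do more than carry blood. Bone marrow progenitors leave the blood through postcapillary venules at the border of cortex and medulla, where P-selectin and integrin ligands slow and arrest them, and mature T cells later leave through perivascular spaces along a gradient of the lipid sphingosine 1-phosphate. Endothelial cells also release factors that act on progenitors and on the epithelium, and capillary endothelium takes up fatty acids for the tissue around it.

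The genes described below were counted at their 3' ends, and a level is given as CPM, counts per 1000000 UMIs of a class summed over its cells in 1 library. Of the genes on the function lists, 57 were called higher in endothelial cells in each of the 3 comparisons below, and the RefSeq table of start sites matched 30 of these. The 250 bases before the start are shown for 3 of them, taken in the order of their smallest fold change over the comparisons, with windows that touch an annotated exon left out. They stand for fatty acid uptake (Cd36), progenitor homing (Selp, which encodes P-selectin) and water transport (Aqp1). The sequences run 5' to 3' on the strand of the gene in GRCm38.p6, and capitals mark AGGAAG or its complement CTTCCT, a core recognised by ETS-family factors such as ERG and FLI1, sought on both strands.

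Cd36, chr5:17835897-17836146, minus strand: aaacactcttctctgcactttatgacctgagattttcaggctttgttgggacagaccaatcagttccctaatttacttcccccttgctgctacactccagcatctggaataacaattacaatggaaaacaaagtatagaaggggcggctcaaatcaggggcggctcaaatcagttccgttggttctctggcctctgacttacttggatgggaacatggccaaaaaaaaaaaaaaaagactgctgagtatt

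Selp, chr1:164115014-164115263, plus strand: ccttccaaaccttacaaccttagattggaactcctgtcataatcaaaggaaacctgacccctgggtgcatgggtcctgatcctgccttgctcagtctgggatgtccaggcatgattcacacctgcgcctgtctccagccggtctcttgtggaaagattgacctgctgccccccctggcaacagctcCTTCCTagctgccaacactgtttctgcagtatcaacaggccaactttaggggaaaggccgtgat

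Aqp1, chr6:55336049-55336298, plus strand: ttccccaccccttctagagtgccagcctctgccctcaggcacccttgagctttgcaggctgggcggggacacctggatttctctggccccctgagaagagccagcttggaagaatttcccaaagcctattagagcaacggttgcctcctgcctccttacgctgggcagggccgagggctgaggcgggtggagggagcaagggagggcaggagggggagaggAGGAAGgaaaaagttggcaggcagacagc

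The Selp window held 1 match, beginning 64 bases before the start site (position -64), the Aqp1 window held 1 at position -29, and the Cd36 window held 0. Of all 32851 upstream windows in the table, 29.5% held the letters, and of the 39 windows of the 30 matched genes 17 did (43.6%). A match describes the letters of the window and not a bound site.

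The 7 genes of the rule were near even between the libraries. Pecam1, which encodes the adhesion molecule CD31, stood at 1800.4 CPM in library 1 and 1592 CPM in library 2. Cdh5, the VE-cadherin of endothelial junctions, stood at 998 and 848 CPM, and Cldn5, a claudin of tight junctions, at 951 and 848 CPM. Flt1, a receptor of vascular endothelial growth factor, stood at 1188 and 1121 CPM. Since these genes chose the cells, their levels describe the choice. Pecam1 had a UMI in 85 of 85 cells of library 1 and 70 of 78 of library 2, and Cldn5 in 44 of 85 and 46 of 78. With every cell thinned to 1000 UMIs, Pecam1 was seen in 84.7% and 71.8% of endothelial cells, against 0.637% and 2.85% of fibroblasts and 1.13% and 1.97% of epithelial cells. The other classes had to hold fewer than 3 of the 7 genes, so this contrast also describes the choice of cells. Median depth before thinning was 8956 and 2114 UMIs for fibroblasts and 12954 and 3181 for epithelial cells.

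Depth differed between the libraries. Endothelial cells of library 1 had a median of 4677 UMIs (range 1209 to 13303), and those of library 2 a median of 2931.5 (range 1011 to 33136). In library 1, 78 of the 85 cells held 5 or more of the 7 genes, whereas in library 2 between 13 and 20 cells held each number from 3 to 7, as the plot of depth per cell shows. The barcodes just inside the rule, with 3 of the 7 genes, numbered 2 in library 1 and 13 in library 2, with median depths of 2082 and 1238 UMIs. Those just outside, with 2 of the 7 genes, numbered 1 and 49, and the 1 in library 1 held 20112 UMIs. The libraries shared 30 barcode sequences, of which 2 were endothelial in library 1 and 0 in library 2.

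**Figure D1:**
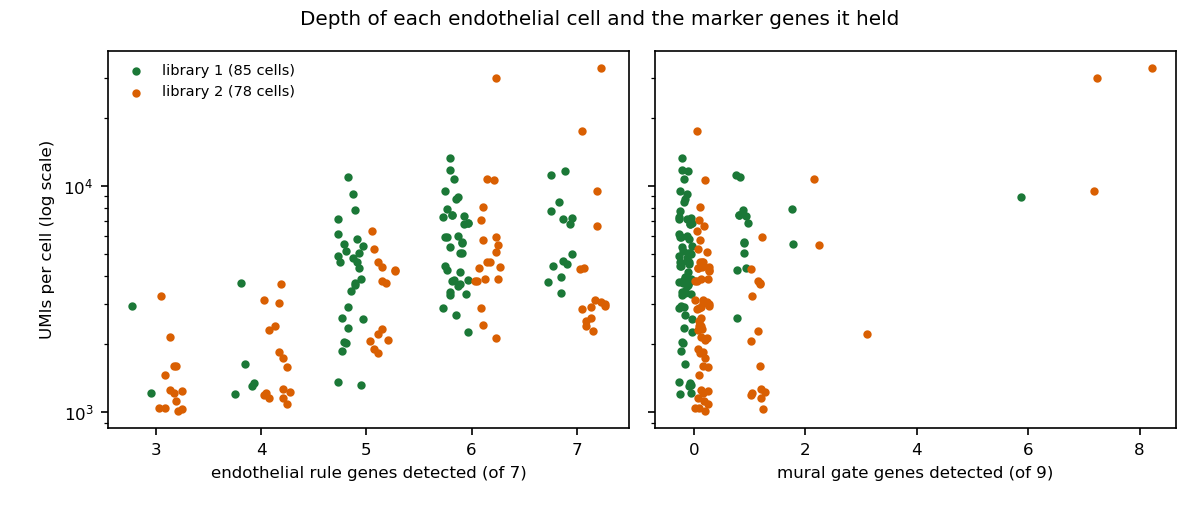
UMIs per endothelial cell (log scale) against the number of the 7 rule genes detected and against the number of 9 mural genes detected, 1 point per cell, by library. The few cells with 3 or more mural genes include the deepest cells of library 2, 2 of which hold over 20000 UMIs.

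Genes of other cell types were measured in the same cells. At least 3 of 9 genes of mural cells (pericytes and smooth muscle, which wrap vessels) were found in 1 cell of library 1 and 4 cells of library 2. These cells held 2.01% and 22.8% of all endothelial UMIs. With them the pericyte gene Rgs5 stood at 94.6 and 1112 CPM, and without them at 2.30 and 23.6 CPM. Without them 49 of the 50 named genes called against mural cells kept their call (Jag2 lost it), 64 of 66 against fibroblasts (Rb1 and Ccnd2 lost it) and 63 of 65 against epithelial cells (Mcm7 and Cdk1 lost it), and all of these kept their direction. For several levels and counts the value without them stands beside the result. Ptprc, the gene of CD45, or at least 2 thymocyte genes were found in 63 of the 85 and 66 of the 78 cells, so that leaving these out kept 22 and 12 cells, and their part in the results was not tested beyond that alternative. The 15 thymocyte markers summed to 379 and 842 CPM, against 410.4 and 888 CPM in epithelial cells and 196 and 1501 CPM in fibroblasts, with 14 of the 15 detected in each endothelial library. Of these 15 markers 0 were called in any comparison with another class. Of all genes tested, 6.16%, 18.6% and 28.3% were called against mural cells, fibroblasts and epithelial cells. Against mural cells 0 of 15 is thus near the share of all genes. Ptprc was called higher than in epithelial cells, at 117 and 139.8 against 49.97 and 87.16 CPM (log2 1.02, edgeR adjusted p = 0.0462). Ptprc was not called against mural cells (-0.07, edgeR adjusted p = 0.97) or fibroblasts (0.62, edgeR adjusted p = 0.25). Of 11 macrophage and dendritic markers, 6 and 9 were at 0 and the sum was 24.8 and 9.12 CPM. B cell, platelet, erythroid and thymic epithelial markers each summed to between 2.25 and 76.0 CPM in a library. Genes induced by tissue dissociation, 18 on the list, summed to 15267 and 15395 CPM, between mural cells (19552 and 18892 CPM) and fibroblasts (10028 and 10145 CPM). Of these genes, 2, 4 and 9 were called higher against mural cells, fibroblasts and epithelial cells, where 3.94%, 9.43% and 13.3% of all genes tested were higher. The part of the dissociation genes in other results was not tested. Foxn1 itself had 0 and 1 UMI in the endothelial cells, against 102 and 89.0 CPM in epithelial cells.

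For the comparisons, counts were summed per library over gated classes: 35 and 45 mural cells, 1255 and 1825 fibroblasts, 96 and 25 mesothelial cells, and 1066 and 1118 epithelial cells. Each gene was tested with edgeR's quasi-likelihood test with the library as a block and counted as called where the p adjusted by Benjamini and Hochberg's method was 0.05 or less. Of 11875 genes tested, 732 (6.16%) were called between endothelial and mural cells, 468 of them higher in endothelial cells. Against fibroblasts 2211 (18.6%) were called, 1120 of them higher, and against epithelial cells 3366 (28.3%), 1583 of them higher. Without the cells that carry mural genes the mural comparison called 992 genes, 517 of them higher. In all 3 comparisons 347 genes (2.92%) were higher and 99 (0.834%) were lower. Each list count below against another class stands beside the shares of all genes tested. These were 3.94% higher and 2.22% lower against mural cells, 9.43% and 9.19% against fibroblasts, and 13.3% and 15.0% against epithelial cells. The classes were gated on marker genes, and most of the lists below name genes known from endothelium, so high counts describe the gated cells and do not show that the classes exist.

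**Figure D2:**
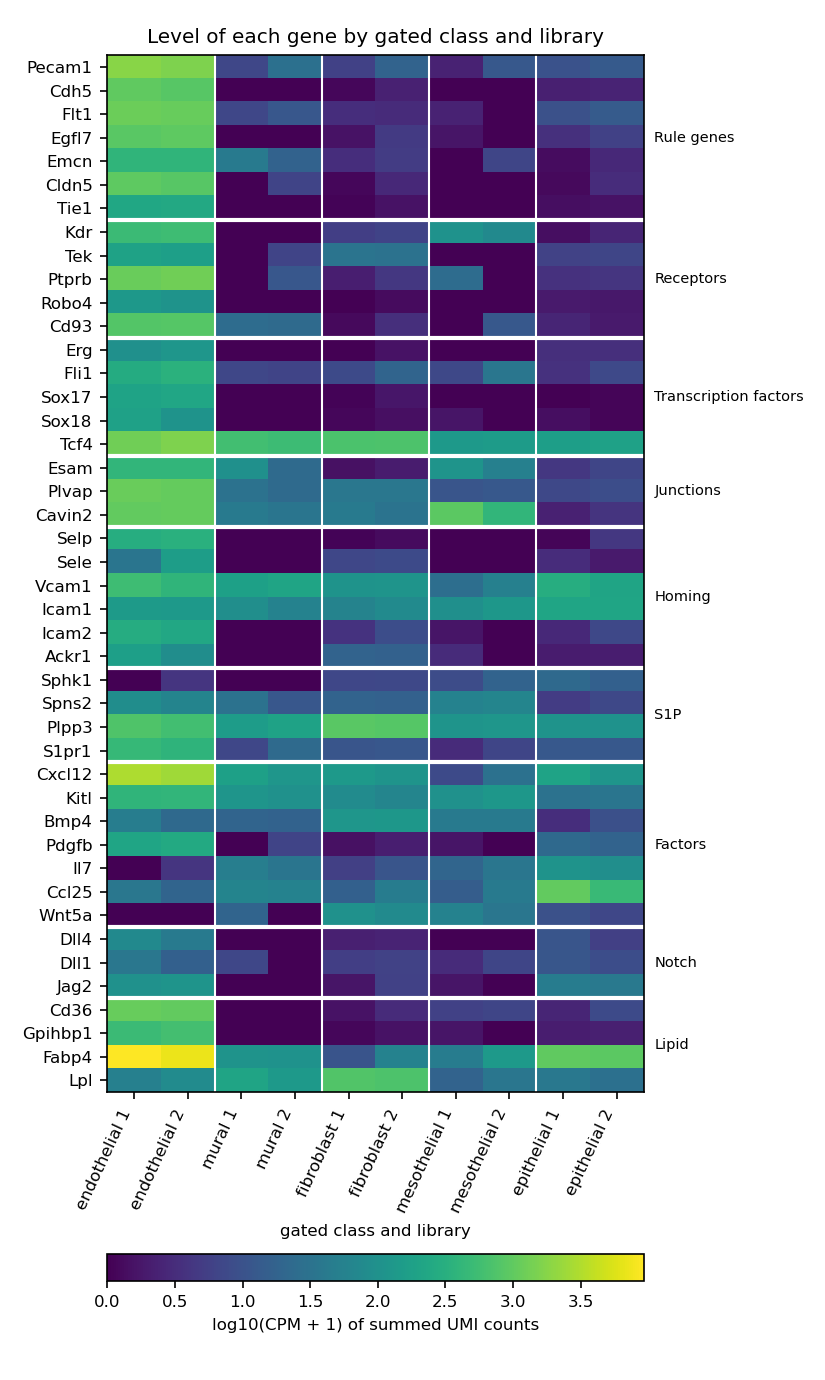
Level of 44 genes, as log10(CPM + 1) of summed UMI counts, in each gated class and library, 1 column per class and library, grouped by role. The 2 endothelial columns are bright for the receptors, transcription factors and lipid genes, whereas Il7, Wnt5a and Sphk1 are dark there.

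Receptors through which vessels read growth and guidance signals were called higher in 10 of 18 against mural cells (3.94% of all genes tested were higher), in 14 of 18 against fibroblasts (9.43%) and in 17 of 18 against epithelial cells (13.3%). The median log2 fold change of the list was 2.25 against fibroblasts and 5.09 against epithelial cells, where the median of all genes tested was -0.07 and -0.10. Against mural cells it was 3.11, or 2.04 with genes at 0 UMIs in mural cells set to their lower bound, beside 0.03 for all genes. Kdr, the main signalling receptor of vascular endothelial growth factor, stood at 498 and 538 CPM in endothelial cells, at 0 and 0 in mural cells, at 4.41 and 5.38 in fibroblasts and at 0.423 and 1.61 in epithelial cells. Both endothelial libraries lay above all others. It was at least 59.3-fold higher than in mural cells, counting 3 UMIs over the pair of libraries as the floor (edgeR adjusted p = 0.00171), and its log2 fold change was 6.69 ± 0.45 (SE, edgeR adjusted p = 7.17e-05) against fibroblasts.

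Ptprb, the phosphatase that restrains TIE2 and VE-cadherin signalling, stood at 1122 and 1279 CPM and was 205-fold higher than in mural cells (counting interval 56.7 to 1699, edgeR adjusted p = 0.00172). Tek, which encodes the angiopoietin receptor TIE2, stood at 192 and 173 CPM and at 33.1 and 29.9 CPM in fibroblasts, a log2 fold change of 2.49 ± 0.28 (edgeR adjusted p = 5.28e-04). Cd93, a lectin-like receptor of endothelium, stood at 804 and 836 CPM against 24.2 and 22.2 CPM in mural cells. Nrp1, a co-receptor for growth factors and semaphorins, was shared more widely, at 658 and 535 CPM against 321 and 283 CPM in mural cells and 282 and 225 CPM in fibroblasts. Its log2 fold change of 1.20 ± 0.39 against mural cells missed the threshold (edgeR adjusted p = 0.12), and its call against fibroblasts (1.19, edgeR adjusted p = 0.0498) was lost in 6 alternatives. The receptor Tgfbr2 was the exception in the list, at 146 and 146 CPM and lower than in fibroblasts (log2 -1.29, where 9.19% of all genes tested were lower), a call lost with cells thinned to 1000 UMIs.

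Transcription factors of the endothelial programme were called higher in 14 of 19 tested genes against mural cells, 18 of 19 against fibroblasts and 19 of 19 against epithelial cells, and 0 were lower. Erg, an ETS factor that maintains endothelial identity, stood at 96.9 and 122 CPM, and Fli1, a related factor, at 277 and 334 CPM. Erg had 0 UMIs in mural cells of both libraries, against which it was at least 12.4-fold higher (edgeR adjusted p = 0.0298), a call lost with at least 2 of the 7 genes or without cells carrying blood markers. Sox17, which takes part in arterial specification, stood at 196 and 222 CPM, at 0 and 0 in mural cells and at 0.0832 and 0.727 in fibroblasts. Both endothelial values lay above every other value, with a log2 fold change of 9.15 ± 0.60 against fibroblasts (edgeR adjusted p = 1.13e-04). Sox18 stood at 185 and 106 CPM and was at least 17.4-fold higher than in mural cells (edgeR adjusted p = 0.0042). Tcf4, a basic helix-loop-helix factor, was broadly present, at 1289 and 1562 CPM against 588 and 521 CPM in mural cells and 689 and 710.0 CPM in fibroblasts, and was still higher by log2 1.56 ± 0.21 and 0.98 ± 0.20 (edgeR adjusted p = 0.00343 and 0.00767).

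Junction and barrier genes were called higher in 9 of 13 genes in each of the 3 comparisons, 7 of them in all 3. Plvap, which forms the diaphragms of fenestrae and caveolae (GRCm38 chromosome 8, 71497765 to 71511752), stood at 1147 and 1054 CPM in endothelial cells. In mural cells it stood at 30.3 and 22.2 CPM, in fibroblasts at 36.4 and 36.3 and in epithelial cells at 6.35 and 7.51. The endothelial libraries were far above all others, with log2 fold changes of 5.60 ± 0.30, 4.88 and 7.35 (edgeR adjusted p = 1.55e-04, 1.36e-05 and 4.38e-06). Esam, an adhesion molecule of endothelial tight junctions, stood at 410.1 and 401 CPM, at 96.9 and 22.2 CPM in mural cells and at 0.499 and 1.02 CPM in fibroblasts. Jam2, a junctional adhesion molecule, stood at 345 and 340.3 CPM and had 0 UMIs in mural cells.

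Adhesion molecules for progenitor homing were called higher in 6 of 12 genes against mural cells, 7 of 12 against fibroblasts and 8 of 12 against epithelial cells. Selp (GRCm38 chromosome 1, 164115264 to 164150026, plus strand), whose window is printed above, stood at 297 and 325 CPM in endothelial cells. Mural cells had 0 UMIs, fibroblasts 0.0832 and 0.291 CPM and epithelial cells 0.121 and 3.35 CPM, so both endothelial values lay above all others. The level was at least 35.6-fold higher than in mural cells (edgeR adjusted p = 0.0241) and 1949-fold higher than in fibroblasts, with a counting interval of 659 to 9516 (edgeR adjusted p = 4.41e-04). The mural call was lost when 2 of the 7 genes were enough (edgeR adjusted p = 0.0774). Selp was found in 20 of 85 cells of library 1 and 14 of 78 of library 2. At 1000 UMIs per cell the share was 16.5% and 10.3%, against 0% and 0.0548% of fibroblasts.

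Vcam1, the ligand of the integrin VLA-4, was not confined to vessels. It stood at 532 and 398 CPM in endothelial cells, 176 and 205 CPM in mural cells, 108 and 110.3 CPM in fibroblasts and 292 and 205 CPM in epithelial cells. The endothelial libraries were the highest in each comparison, with log2 fold changes of 1.48 ± 0.31, 2.05 and 0.95 ± 0.28 (edgeR adjusted p = 0.0251, 0.0011 and 0.0313). The calls against mural and epithelial cells were each lost in 2 alternatives. Icam1, the ligand of LFA-1, stood at 144 and 139.8 CPM and was called only against fibroblasts (log2 1.01, edgeR adjusted p = 0.0176), where the call was lost in 2 alternatives. Against mural cells it was 1.18 (edgeR adjusted p = 0.0564, called in 5 alternatives) and against epithelial cells -0.54 (edgeR adjusted p = 0.12). Icam2, a constitutive ligand on endothelium, stood at 279 and 237 CPM, with 0 UMIs in mural cells (at least 30.1-fold, edgeR adjusted p = 0.00549).

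Ackr1, a chemokine-scavenging receptor of venules, stood at 169 and 88.1 CPM and at 17.0 and 16.3 CPM in fibroblasts. Its log2 fold change was 2.89 ± 0.34 against fibroblasts (edgeR adjusted p = 6.77e-04), and it was at least 15.5-fold higher than in mural cells (edgeR adjusted p = 0.0038). Sele, which encodes the inducible E-selectin, differed between the libraries, at 33.8 and 158 CPM, and mural cells had 0 UMIs (edgeR adjusted p = 0.0691). The sialomucin genes Podxl and Cd34 were both higher than in mural and epithelial cells, and parted against fibroblasts. Podxl stood at 306 and 362 CPM, at least 38.0-fold higher than in mural cells, and Cd34 at 667 and 662 CPM against 36.4 and 16.6 CPM there (log2 4.87 ± 0.90, edgeR adjusted p = 0.0145). Against fibroblasts Podxl was higher by 8.99 ± 0.59 (edgeR adjusted p = 6.70e-05), whereas Cd34 stood at 1079 and 859.6 CPM in them (-0.60, edgeR adjusted p = 0.59).

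The sphingosine 1-phosphate genes were mixed in direction. Against mural cells 3 of 11 were higher and 1 lower (2.22% of all genes tested were lower), against fibroblasts 3 and 2 (9.19% of all genes lower), and against epithelial cells 4 and 4 (15.0% lower), with list medians of 0.39, -0.41 and -1.41. S1pr1, the receptor that T cells use to leave and that stabilises endothelial junctions, stood at 444 and 377 CPM against 6.06 and 22.2 CPM in mural cells, 10.2 and 10.9 CPM in fibroblasts and 11.6 and 11.1 CPM in epithelial cells. The endothelial libraries stood well above the rest, with log2 fold changes of 5.03 ± 0.42, 5.24 ± 0.28 and 5.22 ± 0.28 (edgeR adjusted p = 8.34e-04, 1.77e-05 and 1.48e-05). S1pr3, another receptor of the lipid, went the other way, at 0 and 12.2 CPM against 121 and 55.4 CPM in mural cells and 133 and 106 CPM in fibroblasts (log2 -3.84 and -4.55, edgeR adjusted p = 0.0228 and 0.00129). S1pr3 had 0 UMIs in both libraries without the cells that carry mural genes.

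Spns2, the transporter that exports sphingosine 1-phosphate, stood at 87.9 and 60.8 CPM, above 17.5 and 15.8 CPM in fibroblasts (log2 2.13 ± 0.34, edgeR adjusted p = 0.00257) and 4.11 and 6.17 CPM in epithelial cells (3.93 ± 0.37, edgeR adjusted p = 1.36e-04). Against 30.3 and 11.1 CPM in mural cells its log2 fold change of 2.09 ± 0.54 missed the threshold (edgeR adjusted p = 0.0544) and passed it in 6 alternatives. Among the enzymes, the kinase gene Sphk1 had 0 and 1 UMI in endothelial cells. Plpp3, a phosphatase that breaks the lipid down, stood at 741 and 577 CPM, higher than 151 and 188 CPM in mural cells (log2 2.15, edgeR adjusted p = 0.00225) and not distinct from 877 and 821 CPM in fibroblasts (-0.41 ± 0.22, edgeR adjusted p = 0.27). Sgpl1, the lyase, stood at 13.5 and 18.2 CPM, below 303 and 234 CPM in epithelial cells (log2 -4.11, edgeR adjusted p = 0.00275).

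Of 27 thymopoietic and angiocrine factors, 5 were higher and 4 lower than in mural cells, 9 higher and 6 lower than in fibroblasts, and 11 higher and 7 lower than in epithelial cells. Leaving out the cells that carry mural genes gave 5 and 7, 7 and 7, and 11 and 8. Cxcl12, the chemokine that draws progenitors through CXCR4 (GRCm38 chromosome 6, 117168535 to 117181367), stood at 3035 and 2495 CPM (mean 2765 ± 382, SD, n = 2). It stood at 176 and 122 CPM in mural cells, 135 and 111.2 in fibroblasts and 195 and 117 in epithelial cells, so the endothelial libraries did not overlap with any other. The log2 fold changes were 4.43 ± 0.41, 4.45 ± 0.38 and 4.21 ± 0.38 (edgeR adjusted p = 0.00121, 1.01e-04 and 1.02e-04). Kitl, which encodes stem cell factor for early progenitors, stood at 389.8 and 407 CPM against 115 and 99.8 CPM in mural cells, 80.8 and 61.6 CPM in fibroblasts and 30.5 and 33.4 CPM in epithelial cells. It was higher by log2 2.10, 2.44 and 3.68 (edgeR adjusted p = 0.00269, 1.29e-04 and 2.91e-05), and the mural call was lost when 2 of the 7 genes were enough.

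Pdgfb, the signal by which endothelium recruits pericytes, stood at 209.6 and 258 CPM and was 79.6-fold higher than in mural cells (counting interval 14.1 to 3160.2, edgeR adjusted p = 0.00167). Pdgfa, its relative, was lower than in mural cells (38.3 and 88.1 against 248 and 194 CPM, log2 -1.65 ± 0.36, edgeR adjusted p = 0.0289). Pdgfa stood at 36.8 and 19.7 CPM without the cells that carry mural genes (log2 -2.73, edgeR adjusted p = 9.95e-04). Tnfsf10, the death ligand TRAIL, stood at 250.1 and 149 CPM, with a log2 fold change of 3.07 against epithelial cells (edgeR adjusted p = 0.00207). Bmp4, a factor tied to epithelial regeneration, was low in endothelial cells at 47.3 and 21.3 CPM and stood at 119 and 126 CPM in fibroblasts. That difference, log2 -1.79 ± 0.55, missed the threshold (edgeR adjusted p = 0.0515) and passed it in 6 alternatives, and against epithelial cells Bmp4 was higher (2.95 ± 0.66, edgeR adjusted p = 0.0111, lost in 2 alternatives).

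Several factors known from other stromal cells were low in endothelial cells, and some of them were near or at 0. Il7, the survival cytokine of thymocytes, had 0 and 1 UMI, and its level was 79.7-fold lower than in epithelial cells (counting interval 14.3 to 3149, edgeR adjusted p = 6.58e-04). Ccl25 stood at 36.1 and 18.2 CPM against 1031 and 489 CPM in epithelial cells (log2 -4.73, edgeR adjusted p = 0.00126). Ccl19 stood at 49.6 and 6.08 CPM, lower than in mural cells (715 and 565 CPM), fibroblasts (177 and 204 CPM) and epithelial cells (553 and 482 CPM). Wnt5a and Fgf10 had 0 UMIs and were at least 24.1-fold and 16.8-fold lower than in fibroblasts (edgeR adjusted p = 4.41e-04 and 0.00333).

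**Figure D3:**
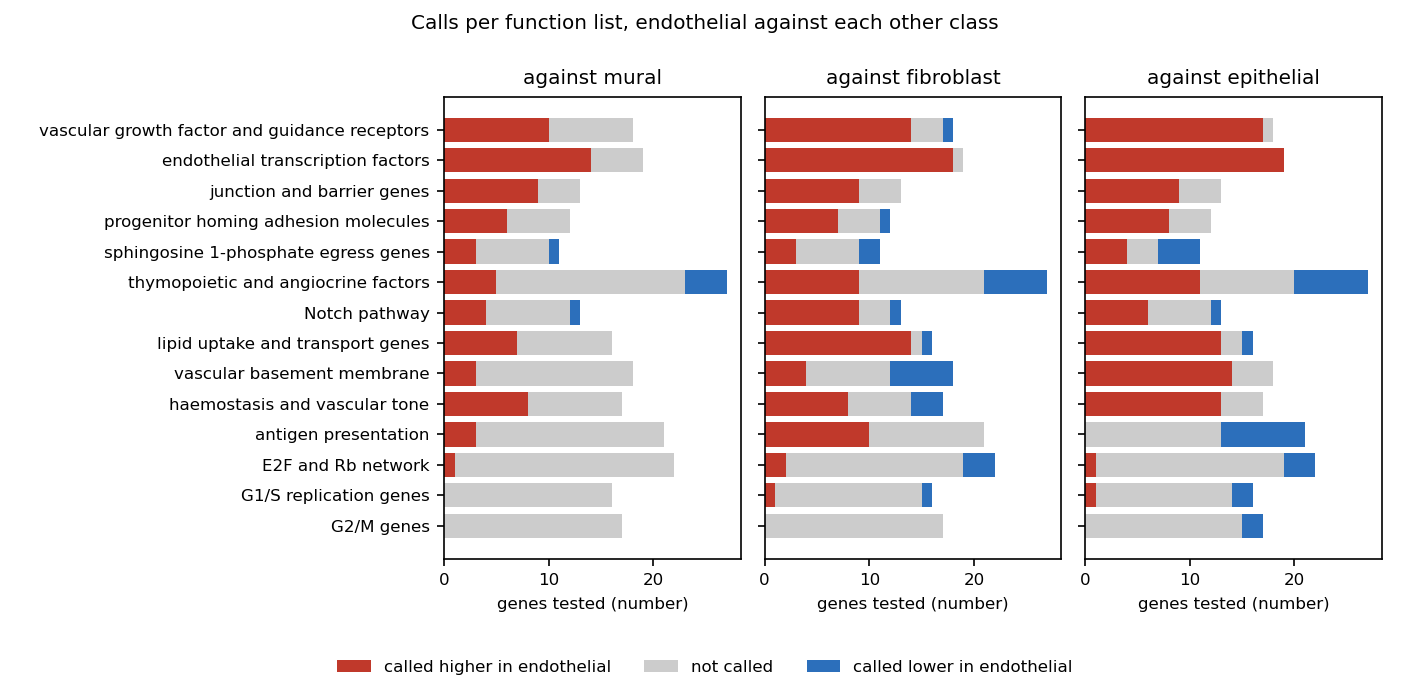
Number of genes tested in each of 14 function lists, split into those called higher in endothelial cells, not called, and called lower, for the 3 comparisons. The 19 transcription factors were all higher against epithelial cells, whereas the lists of cell cycle genes are nearly all grey.

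In the Notch pathway 4 of 13 genes were higher and 1 lower against mural cells, 9 and 1 against fibroblasts, and 6 and 1 against epithelial cells. Dll4, the ligand that commits progenitors to the T lineage and that also patterns vessels, stood at 74.4 and 42.5 CPM. Epithelial cells, its known source for progenitors, stood at 10.0 and 4.69 CPM as a whole class, mural cells had 0 UMIs and fibroblasts 1.25 and 1.45 CPM. Each endothelial value was above all others, and the log2 fold change was 3.05 ± 0.49 against epithelial cells (edgeR adjusted p = 0.00435) and 5.38 against fibroblasts (edgeR adjusted p = 7.50e-04). Dll1 stood at 36.1 and 15.2 CPM and at 10.5 and 7.51 CPM in epithelial cells (1.57, edgeR adjusted p = 0.0561). Jag2, another ligand, stood at 99.1 and 112.4 CPM against 44.5 and 39.7 CPM in epithelial cells (1.33, edgeR adjusted p = 0.0989). The receptor Notch1 was higher in each comparison, at 174 and 234 CPM against 78.8 and 77.6 CPM in mural cells (1.58 ± 0.27, edgeR adjusted p = 0.00929), whereas Notch2 stood at 2.25 and 9.12 CPM, below 50.8 and 62.1 CPM in fibroblasts (-3.46, edgeR adjusted p = 0.00265). Heyl, a Notch target gene of mural cells, was the lower gene against them, at 0 and 15.2 CPM against 145 and 177 CPM. Without the cells that carry mural genes Heyl had 0 UMIs in both libraries, Jag2 stood at 66.9 CPM in library 2, and 2 Notch genes were lower than in mural cells, Notch2 being added.

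Lipid uptake and transport genes were higher in 7 of 16 against mural cells, 14 of 16 against fibroblasts and 13 of 16 against epithelial cells. Cd36, the fatty acid translocase whose window is printed above, stood at 1088 and 1036 CPM and had 0 UMIs in mural cells (at least 123-fold, edgeR adjusted p = 0.00172). Gpihbp1, which carries lipoprotein lipase to the capillary lumen, stood at 507 and 599 CPM, with a log2 fold change of 10.56 ± 0.39 against fibroblasts (edgeR adjusted p = 1.21e-05). Fabp4, a fatty acid carrier, stood at 9194 and 7125 CPM, and epithelial cells held 996 and 929 CPM of it (3.16 ± 0.61, edgeR adjusted p = 0.00546). The lipase gene Lpl went the other way, at 51.8 and 82.0 CPM against 772 and 715 CPM in fibroblasts (-3.53 ± 0.33, edgeR adjusted p = 1.41e-04). Aqp1 stood at 1893 and 1768 CPM against 18.2 and 33.3 CPM in mural cells (6.37 ± 0.45, edgeR adjusted p = 6.80e-04).

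Of 18 genes of the vascular basement membrane 3 were higher than in mural cells, 4 higher and 6 lower than in fibroblasts, and 14 higher than in epithelial cells. Col4a1, a chain of type IV collagen, stood at 937 and 929.7 CPM against 160.2 and 118 CPM in epithelial cells (2.82 ± 0.37, edgeR adjusted p = 8.05e-04). It stood at 654 and 499 CPM in mural cells and 595 and 466 CPM in fibroblasts, with neither difference called (0.93 and 0.80, edgeR adjusted p = 0.2 and 0.16). Nid1, a linker of the membrane, stood at 142 and 122 CPM, below 1465 and 1269.6 CPM in fibroblasts (-3.41 ± 0.34, edgeR adjusted p = 1.97e-04). Among 17 genes of haemostasis and vascular tone, 8 were higher than in mural cells, 8 higher and 3 lower than in fibroblasts, and 13 higher than in epithelial cells. Vwf, the von Willebrand factor, stood at 309 and 207 CPM and was 45.8-fold higher than in mural cells (counting interval 12.5 to 381, edgeR adjusted p = 0.00253). Nos3, the endothelial nitric oxide synthase, stood at 45.1 and 94.2 CPM, and Thbd, the anticoagulant thrombomodulin, at 268 and 286 CPM, not distinct from 228 and 255 CPM in fibroblasts (0.16, edgeR adjusted p = 0.79).

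Antigen presentation genes split by partner. Of 21 genes, 3 were higher than in mural cells and 10 higher than in fibroblasts, whereas against epithelial cells 0 were higher and 8 lower. Without the cells that carry mural genes 6 were higher than in mural cells, H2-D1, H2-Q7 and Psmb9 being added. H2-K1, a class I heavy chain, stood at 2979 and 2409 CPM against 1328 and 1339 CPM in fibroblasts (0.97 ± 0.19, edgeR adjusted p = 0.00677) and 2934 and 2895 CPM in epithelial cells (-0.08 ± 0.19, edgeR adjusted p = 0.79). Cd74, the invariant chain of class II, stood at 448 and 362 CPM, below 9489 and 8569 CPM in epithelial cells (-4.41 ± 0.77, edgeR adjusted p = 0.00337). H2-Aa stood at 153 and 146 CPM. Class I genes are polymorphic and near-identical copies can share reads, so values of single class I genes are uncertain.

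The E2F factors, whose sites the genotype removes from the Foxn1 promoter, and their partners were tested as a list of 22 genes. Of these 1 was higher than in mural cells, 2 higher and 3 lower than in fibroblasts, and 1 higher and 3 lower than in epithelial cells (against 6.16%, 18.6% and 28.3% of all genes called in either direction). Without the cells that carry mural genes these counts were 1 higher and 2 lower, 0 and 4, and 1 and 4. E2f4, a repressor E2F, stood at 27.0 and 33.4 CPM, with log2 fold changes of 0.12 ± 0.43, 0.25 ± 0.30 and 0.55 ± 0.31 (edgeR adjusted p = 0.95, 0.65 and 0.21). E2f1, an activator, had 0 UMIs in endothelial cells of both libraries and was at least 3.39-fold lower than in fibroblasts (edgeR adjusted p = 0.036, lost with at least 2 of the 7 genes). Rb1 stood at 65.3 and 48.6 CPM, and its call against fibroblasts (1.17, edgeR adjusted p = 0.0484) was lost in 6 alternatives. Cdkn1a, which encodes the cell cycle inhibitor p21, stood at 162 and 213 CPM against 30.3 and 33.3 CPM in mural cells (2.75 ± 0.53, edgeR adjusted p = 0.0165, lost in 4 alternatives), and at 138 CPM in library 2 without the cells that carry mural genes. Cdkn1c, another inhibitor, stood at 27.0 and 39.5 CPM, below 165 and 142 CPM in fibroblasts (-2.27 ± 0.30, edgeR adjusted p = 8.22e-04).

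The counts of replication genes called stand beside 6.16%, 18.6% and 28.3% of all genes called against mural cells, fibroblasts and epithelial cells. Of 16 genes of the G1 to S step 0 were called by edgeR against mural cells, 1 higher and 1 lower against fibroblasts, and 1 higher and 2 lower against epithelial cells. Of 17 genes of the G2 and M phases 0 were called against mural cells, 0 against fibroblasts and 2, both lower, against epithelial cells. At an unadjusted p under 0.05 these counts of 0 became 2 for the G1 to S genes against mural cells, and 1 each for the G2 and M genes against mural cells and fibroblasts, and DESeq2 called 0 in each. Mki67, which marks dividing cells, stood at 36.1 and 48.6 CPM, with log2 fold changes of -0.97, -0.70 and -0.79 (edgeR adjusted p = 0.41, 0.38 and 0.25). When 2 of the 7 genes were enough, the Mki67 differences against fibroblasts and epithelial cells turned to 1.95 and 1.89. Mcm7 and Cdk1 were no longer called against epithelial cells without the cells that carry mural genes.

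Genes outside every list were named by size. Against mural cells the largest increases were in Ctla2a, a cathepsin inhibitor (1751 and 1288 CPM, at least 179-fold), Adgrl4, an adhesion receptor of endothelium (500.2 and 444 CPM, at least 54.8-fold), Cyyr1 (at least 46.3-fold), Tmem252 (at least 35.5-fold) and Rasip1 (at least 33.7-fold), all at 0 UMIs in mural cells. Cygb and Ccl11 had 1 and 3 endothelial UMIs and were 145-fold (25.2 to 5831) and 117-fold (39.3 to 574) lower. Against fibroblasts, Fam167b was at least 587-fold and Syt15 at least 245-fold higher, and the lower genes at 0 endothelial UMIs included Fndc1, a matrix gene (at least 92.3-fold), and Cxcl13, a chemokine for B cells (at least 51.3-fold). Against epithelial cells, Adgrl4 was higher by log2 10.20 and Ctla2a by 9.84, and the epithelial genes S100g and Ehf were at least 55.7-fold and 35.3-fold lower.

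Vessel types other than lymphatic, whose rule is given below, were then sought among the 163 cells from 8 markers each. Every cell was thinned to 1000 UMIs, and 2 detected markers were needed. Capillary markers placed 51 of 85 cells of library 1 (60.0%) and 43 of 78 of library 2 (55.1%). Venous and portal markers, where portal stands for the venules through which progenitors enter, placed 25 cells (29.4%, exact interval 20.0 to 40.3) and 18 cells (23.1%, 14.3 to 34.0). Arterial markers placed 15 cells (17.6%, 10.2 to 27.4) and 3 cells (3.85%, 0.800 to 10.8). Without the cells that carry mural genes, and with UMIs drawn anew, the shares were 32.1% and 18.9% venous and portal and 17.9% and 5.41% arterial. At full depth the shares were 90.6% and 79.5% capillary, 52.9% and 34.6% venous and portal, and 28.2% and 14.1% arterial. A cell could belong to several types, and 17 of 24 arterial cells of library 1 and 8 of 11 of library 2 were also placed as venous and portal at full depth.

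A cell was placed as lymphatic when it held a Prox1 UMI or at least 2 of Lyve1, Flt4 and Mmrn1. This rule placed 0 of 85 and 0 of 78 cells, at 1000 UMIs and at full depth. The exact interval for cells that meet this rule reaches 4.25% and 4.62%, and this limits detections and not the share of lymphatic cells. Prox1, the factor that sets lymphatic fate, had 0 UMIs in both libraries, and Lyve1 had 0 and 1 UMI. Flt4, the receptor of lymphatic growth factors that is also found on fenestrated blood vessels, stood at 27.0 and 21.3 CPM. Tip-cell markers of sprouting vessels placed 0 cells at 1000 UMIs and 11 and 7 cells at full depth.

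Of the 8 arterial markers, 5 fell by more than 1.5 times in library 2 when the cells that carry mural genes were left out. Bmx went from 76.0 to 15.7 CPM, Gja4 from 48.6 to 19.7 CPM, Fbln5 from 122 to 43.3 CPM, Stmn2 from 66.8 to 27.5 CPM and Sema3g from 131 to 82.6 CPM. Efnb2 stood at 134 and 138 CPM with and without them, and Cxcr4 had 5 UMIs either way. At full depth 11 of 78 cells of library 2 were placed as arterial with them and 8 of 74 without them. After thinning, which drew UMIs anew for each set of cells, the counts were 3 of 78 and 4 of 74. These thinned counts thus also differ by the draw. The Notch ligand Jag1 went from 97.2 to 19.7 CPM. In library 1, Bmx, Jag1, Gja4 and Fbln5 stood at 83.4 and 80.5, 63.1 and 64.4, 83.4 and 78.2, and 214 and 207 CPM with and without them. Gja5, a connexin of arteries, stood at 67.6 CPM in library 1 and 9.12 CPM in library 2, where 2 of its 3 UMIs stayed without those cells. In library 2 most UMIs of Bmx, Jag1, Gja4 and Fbln5 lay in those 4 cells.

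The venous and portal cells were compared with the rest. Cells with at least 2 of the 8 venous and portal markers Nr2f2, Ephb4, Selp, Ackr1, Vwf, Vcam1, Lrg1 and Bgn, and with more of these than of the 8 arterial markers, numbered 29 in library 1 and 22 in library 2, against 56 and 56 other endothelial cells. Their median depth was 5168 and 4238.5 UMIs, against 4255 and 2373.5 UMIs in the others. Of the venous and portal markers, Selp stood at 723 and 874 CPM in these cells against 0 and 18.9 CPM in the others. Vwf stood at 510 and 526 against 168 and 28.4 CPM, and Nr2f2 at 181 and 204 against 22.96 and 161 CPM. Vcam1 was lower in library 1 (433 against 601 CPM) and higher in library 2 (662 against 251 CPM). Against mural cells 6 of the 8 markers were called higher in endothelial cells and Nr2f2 lower, a call kept in 9 of 10 alternatives. The fit between the subsets had 1 residual degree of freedom. Of 3567 genes tested, 91 (2.55%) were called by edgeR, 57 of them (1.6% of genes tested) higher in the venous and portal cells. The marker genes themselves were left out. DESeq2 called 32, of which 24 were higher and 8 lower, and without the cells that carry mural genes edgeR called 236. Of these cells 1 of the 4 in library 2 belonged to the venous and portal cells, and the rest of both libraries to the other endothelial cells.

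Plvap and the E-selectin gene were among the genes higher in the venous and portal cells. Plvap stood at 1666 and 1977 CPM there and at 785 and 539.6 CPM in the other cells, with no overlap (log2 1.58, edgeR adjusted p = 0.012). Nrp2, a receptor for semaphorins and lymphatic growth factors, stood at 526 and 552 CPM against 191 and 133 CPM (1.85 ± 0.24, edgeR adjusted p = 0.0123). Sele stood at 71.2 and 433 CPM against 7.65 and 4.73 CPM, and was called (edgeR adjusted p = 0.0101). Of the endothelial Sele UMIs, 13 of 15 in library 1 and 51 of 52 in library 2 were in these cells. Col15a1, a collagen of the outer basement membrane, stood at 734 and 764 CPM against 245 and 213 CPM (1.82 ± 0.20, edgeR adjusted p = 0.00848). Aqp1 and the class II chain Cd74 were also higher, Aqp1 at 2745 and 2486 CPM against 1297 and 1368 CPM (1.09 ± 0.15, edgeR adjusted p = 0.0139) and Cd74 at 707 and 594 CPM against 268 and 232 CPM (1.50 ± 0.20, edgeR adjusted p = 0.0139).

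Among genes outside the lists, Tgfbi, a secreted matrix protein, stood at 351 and 280.0 CPM against 15.3 and 14.2 CPM (4.49 ± 0.37, edgeR adjusted p = 0.00205). Pcdh7, a protocadherin, had 121 and 119 CPM against 0 UMIs, at least 18.9-fold (edgeR adjusted p = 0.0139). A further 4 genes were picked after their values had been seen. Enpp2, which encodes autotaxin, the enzyme that makes lysophosphatidic acid, stood at 2241 and 1884 CPM against 628 and 346 CPM (2.24 ± 0.18, edgeR adjusted p = 0.00205). Apoe, a lipoprotein, stood at 4345 and 3581 CPM against 849.6 and 639 CPM (2.54, edgeR adjusted p = 0.00111). Ctsl, a lysosomal protease, and Il6st, the shared receptor of the interleukin 6 family, were higher by 2.83 and 2.37 (edgeR adjusted p = 0.0012 and 0.00178). In each of these genes both venous and portal values lay above both others. Of 78 tested genes of cytosolic ribosomal proteins, 14 were higher and 0 lower, with called changes from 0.70 to 1.88. Of all genes tested 1.6% were higher and 0.953% lower. The ribosomal genes were on none of the lists and were also picked after values had been seen.

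**Figure D4:**
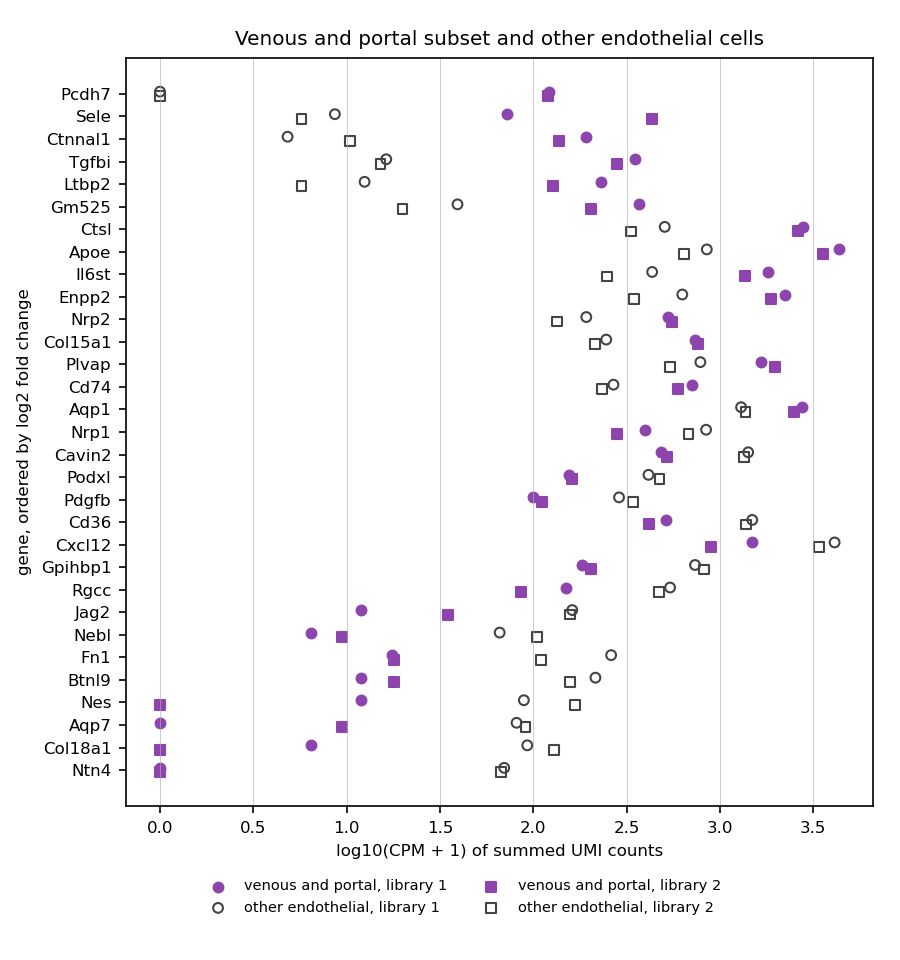
Level, as log10(CPM + 1) of summed UMI counts, of the named genes called between venous and portal cells (filled) and other endothelial cells (open), circles for library 1 and squares for library 2, with Enpp2, Apoe, Ctsl and Il6st added. In each row the filled and open points do not overlap, with Tgfbi at 351 and 280.0 CPM against 15.3 and 14.2 CPM.

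Of 13 lipid genes 6 were lower in the venous and portal cells and 1 higher, with a list median of -0.58 beside -0.01 for all genes tested (0.953% of which were called lower). Of the 8 capillary markers 5 were lower and 0 higher. All of these markers but Kdr, which was not called, are also on the lipid list. The 5 lower markers are thus among the 6 lower lipid genes. Gpihbp1 stood at 181 and 204 CPM against 735 and 819 CPM (-1.89 ± 0.21, edgeR adjusted p = 0.00848), and Cd36 at 515 and 416 CPM against 1489 and 1382 CPM (-1.50 ± 0.18, edgeR adjusted p = 0.0101). Fabp4 was lower by less, at 6609 and 5201 CPM against 10999 and 8198 CPM (-0.58 ± 0.11, edgeR adjusted p = 0.0472). Cxcl12 was also lower, at 1491 and 891 CPM against 4114 and 3389 CPM, with no overlap (-1.56 ± 0.17, edgeR adjusted p = 0.00848). Jag2 had 2 and 4 UMIs against 161 and 156 CPM (-2.81 ± 0.49, edgeR adjusted p = 0.0374), and Pdgfb stood at 98.6 and 110.3 CPM against 287 and 341 CPM (-1.45, edgeR adjusted p = 0.043). With 2 of the 7 genes enough, the calls of Cxcl12 (-0.97), Gpihbp1 (-1.30), Cd36 (-0.89) and Pdgfb (-0.87) were lost and their direction stayed.

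No endothelial transcription factor passed the test between the subsets. Of 18 tested 0 were called by edgeR and 0 by DESeq2, with 1 higher and 4 lower at an unadjusted p under 0.05, beside 2.55% of all genes called, so that 0 of 18 is near the share of all genes. Fli1 (0.81 ± 0.22, edgeR adjusted p = 0.11) was called in 1 alternative. Of the 4 egress genes 0 were called by edgeR or DESeq2, with 1 higher and 2 lower at an unadjusted p under 0.05. Without the cells that carry mural genes Spns2 was called higher, and Plpp1 and Plpp3 lower. Spns2 stood at 137 and 127 CPM in venous and portal cells and 53.6 and 23.7 CPM in the others (1.85 ± 0.42, edgeR adjusted p = 0.0686), and 5 alternatives called it. Icam1 stood at 225 and 212 CPM against 88.0 and 99.4 CPM (1.35 ± 0.29, edgeR adjusted p = 0.0601), and 5 alternatives called it too. Plpp3 stood at 389 and 407 CPM against 987 and 672 CPM (-0.93 ± 0.21, edgeR adjusted p = 0.0676), called in 3 alternatives.

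The cells with Selp, the selectin of the entry venules, were set beside those without it. This split was chosen after the levels had been seen, it follows Selp itself, and it was not tested. The 20 and 14 cells with a Selp UMI were deeper, with medians of 7274 and 5293.5 UMIs against 4444 and 2424.5 UMIs in the 65 and 64 cells without, so shares are given at full depth and with every cell thinned to 1000 UMIs. Ackr1 was found in 17 of 20 (85.0%) and 9 of 14 (64.3%) cells with Selp, against 1 of 65 (1.54%) and 0 of 64 without. After thinning the shares were 45% and 35.7% against 0 of 65 and 0 of 64. Plvap was found after thinning in 80.0% and 85.7% of cells with Selp, against 44.6% and 23.4% of those without, with levels of 1693 and 2339 CPM against 898 and 566 CPM. The intervals of these Plvap shares overlapped in library 1 and not in library 2.

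Spns2 followed Selp in level, at 144 and 154 CPM with Selp and 62.3 and 25.2 CPM without. At full depth it was found in 14 of 20 (70.0%) and 8 of 14 (57.1%) against 16 of 65 (24.6%) and 6 of 64 (9.38%). After thinning only 3 of 20 and 1 of 14 cells kept a Spns2 UMI, against 2 of 65 and 3 of 64, and the intervals of these shares overlap. The intervals of this split cover counting error within a library only. Vcam1 stood at 526 and 463 CPM with Selp and 534 and 373 CPM without. It was found in 13 of 20 and 10 of 14 cells with Selp against 23 of 65 and 14 of 64 without, and after thinning in 7 of 20 and 3 of 14 against 14 of 65 and 9 of 64, where the intervals overlap. Nr2f2, the venous fate factor, was higher with Selp in library 1 (223 against 26.2 CPM) but not in library 2 (154 against 184 CPM), where the cells without Selp include those that carry mural genes. Bmp4 stood at 115 against 16.4 CPM in library 1 and at 22.1 against 21.0 CPM in library 2, so the libraries differed.

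The capillary gene Gpihbp1 was rarer in the cells with Selp, in 3 of 20 (15.0%) and 5 of 14 (35.7%) against 44 of 65 (67.7%) and 38 of 64 (59.4%), and its level was 28.8 and 121 CPM against 725 and 779.9 CPM. After thinning the shares were 5% and 7.14% against 46.2% and 45.3%, with intervals that overlap in library 2 and not in library 1. Cd36 was lower in level, at 288 and 320.0 CPM against 1453 and 1308 CPM, but at full depth it was not rarer. It was found in 16 of 20 (80.0%) and 11 of 14 (78.6%) cells with Selp against 53 of 65 (81.5%) and 42 of 64 (65.6%) without. After thinning the Cd36 shares were 25% and 28.6% against 55.4% and 56.25%, with intervals that overlap in both libraries. Sema3g, an arterial semaphorin, was found in 0 of 20 and 0 of 14 cells with Selp and in 26 of 65 and 15 of 64 without. After thinning 16 of 65 and 5 of 64 cells without Selp kept a Sema3g UMI, and the intervals overlap in both libraries.

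**Figure D5:**
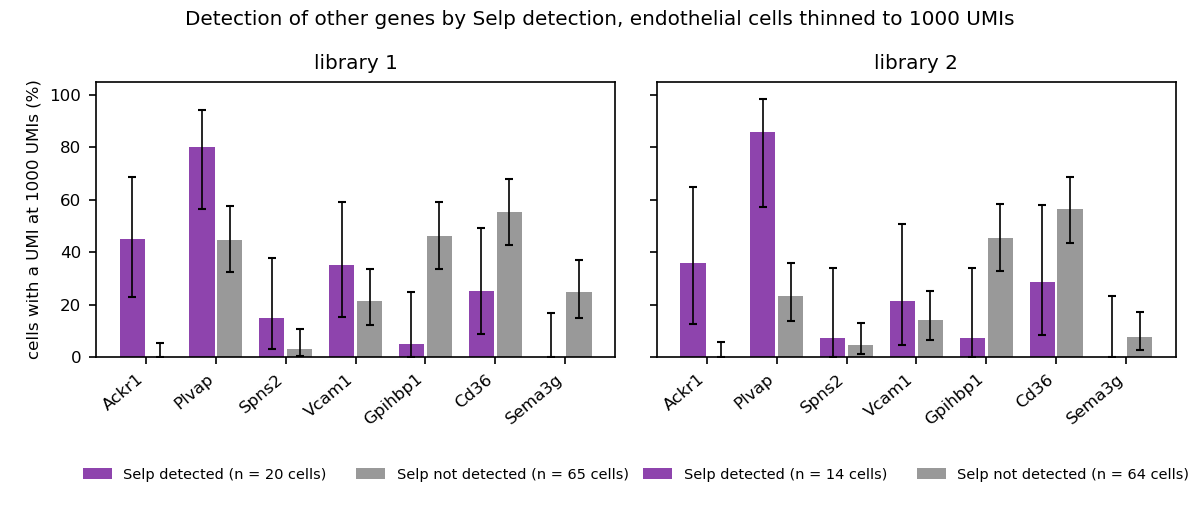
Percent of endothelial cells with a UMI of 7 genes after thinning to 1000 UMIs, in cells with and without a Selp UMI, per library, with exact 95% binomial bars. Ackr1 reaches 45% and 35.7% in cells with Selp and 0% without, and Gpihbp1 is at 5% and 7.14% against 46.2% and 45.3%. The bars of Spns2, Vcam1, Cd36 and Sema3g overlap in both libraries, those of Plvap in library 1 and those of Gpihbp1 in library 2. The bars cover counting error only.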

How the data were processed

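The values that the authors deposited are counts of UMIs, whole numbers for each barcode and gene, not normalised, from 2 libraries of 10x Genomics 3' chemistry. Cell Ranger 7, Seurat 4 and the build mm10 stand in the submitters' processing notes, whereas Cell Ranger 6.0.0 stands in the matrices, per the file headers. Of 32285 features in a matrix, 32158 matched a gene of GENCODE vM21 (GRCm38). The total was 41075328 UMIs over 5110 barcodes for library 1 and 42583831 UMIs over 19163 barcodes for library 2. Endothelial cells held 443782 and 329123 UMIs in all, which sets the precision of each level.

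The members and gene lists were chosen with earlier results of these data known. The other classes were gated by at least 3 detected genes of mural (9 genes), fibroblast (6) or mesothelial (6) lists or by Epcam and epithelial genes, and no cell entered more than 1 class. No doublet caller was run: cells carrying genes of another class were counted instead. The genes of the gates were described and not tested.

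Counts were summed per class and library (10 sums) and tested with edgeR 4.0.16 in R 4.3.3 (limma 3.58.1), with filterByExpr, TMM scaling and a block for the library. The fit held 11912 genes with 4 residual degrees of freedom, and its common biological coefficient of variation was 0.221. The venous and portal fit held 3588 genes and 1 residual degree of freedom. The library is a shared source: the classes compared come from the same suspension, so the block pairs them by design. The SE of a log2 fold change was taken from the F statistic. A ratio with a counting interval is given where a class held 1 to 3 UMIs, and a bound at 3 UMIs over both libraries where it held 0. Intervals are 95% and exact. Thinning to 1000 UMIs was random without replacement and was drawn anew for each alternative set of cells.

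Named genes were a set of 36 genes always reported, the 2 called genes of each function list with the largest change in each direction, and the 5 outside all lists. They needed at least 10 UMIs in the higher class in each library. Tested on simulated counts for 11383 genes, the fit recovered 35% of genes changed by a log2 of 2 and 68% of those changed by 4 against mural cells, 60% and 84% against fibroblasts, 56% and 83% against epithelial cells, and, for 3504 genes, 82% and 92% between endothelial subsets. False calls were 0.962% to 5.44% of calls. The simulated classes shared 1 mean profile apart from the changed genes, with the common coefficient of variation for every gene and no library effect beyond depth. Recovery under a spread that differs between genes was not tested. Alternatives were a rule of at least 4 or at least 2 of the 7 genes, a stricter cell filter (1000 genes, 2000 UMIs, 5% mitochondrial), cells without blood markers, thinned cells, DESeq2 1.42.0, no low-count filter, no library block and only the classes compared. Leaving out the cells with at least 3 mural genes was chosen after seeing the data.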

Additional observations from a re-analysis of the deposited data

Results flagged for a closer look

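Barcodes that met the gene conditions for endothelial cells but failed the cell filter were not part of any comparison. They numbered 17 in library 1 and 39 in library 2, with median depths of 1117 and 1248 UMIs. Of these, 14 and 26 exceeded 10% mitochondrial UMIs. They are listed because they hold endothelial transcripts outside the cells analysed.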

How the results depend on the processing

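The number of genes called against mural cells, 732, was 468 without cells carrying blood markers, 235 with cells thinned to 1000 UMIs and 1301 with no low-count filter. Against fibroblasts, 2211 became 1214 and 631 under the first 2 of these, and against epithelial cells 3366 became 1477 and 715, and 5195 with only the 2 classes compared. The venous and portal count of 91 was 339 with at least 4 of the 7 genes, 194 with at least 2, 236 without cells carrying mural genes, 32 with DESeq2 and 339 with no low-count filter. Fewer cells or UMIs entered the fits without blood markers and after thinning. The cause of these shifts and of the others was not tested. Without the library block, which pairs classes of the same suspension, the counts were 798, 2174, 3333 and 124 in the same order. With 1 library left out the fits have no residual degrees of freedom, so no count was made, and the venous and portal fit without cells carrying blood markers was not run because a sum held under 20 cells. Unthinned shares were 21.2% arterial, 43.8% venous and portal, 85.0% capillary and 10.96% tip. With at least 2 of the 7 genes the venous and portal share was 20.1%, the capillary share 45.8% and the tip share 0.581%. The stricter cell filter gave 67.6% capillary and 0.847% tip, and leaving out cells with blood markers, which kept 22 and 12 endothelial cells, gave 32.6% venous and portal and 4.55% arterial (main value 10.7%). The endothelial share of library 2, 0.953%, was 1.55% with at least 2 of the 7 genes, 1.43% with the stricter filter and 1.62% among cells without blood markers, and 2.16% to 2.40% in library 1 over the alternatives. With 1 library left out, the endothelial share ranged from 0.953% to 2.37%, arterial from 3.85% to 17.6%, venous and portal from 23.1% to 29.4%, capillary from 55.1% to 60.0%, and lymphatic and tip were 0% in both. The log2 changes that turned positive with at least 2 of the 7 genes were Mki67 (1.95) and Uhrf1 (2.01) against fibroblasts, and Mki67 (1.89), Uhrf1 (1.12), Mcm7 (1.36), Hmmr (1.14) and Cdk1 (0.72) against epithelial cells; the cause was not tested. Of the named genes called, 30 of 50 kept their call in every alternative against mural cells, 48 of 66 against fibroblasts, 52 of 65 against epithelial cells and 18 of 27 between the subsets. Depth limits genes of few UMIs. Of the 27 named genes called between the subsets, 22 were tested without the cells that carry mural genes and all 22 kept their call.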
